A study of Mus musculus with 9 samples.

Results

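The MYC, MAX and MXD network was followed as 9 genes chosen by name (*Myc*, *Mycn*, *Max*, *Mxd1*, *Mxd3*, *Mxd4*, *Mxi1*, *Mnt* and *Mga*) out of 43346 genes listed in the deposited table; the rule used no threshold on their values, but they were picked with earlier results of these data known. All 9 were among the 15024 genes with enough counts to be tested. MYC and MYCN are basic helix-loop-helix leucine zipper transcription factors that bind DNA as heterodimers with MAX, mostly at the E-box sequence CACGTG, and raise transcription of genes for ribosome production, metabolism and growth. The MXD proteins (MXD1, MXI1, MXD3 and MXD4), MNT and MGA also bind as heterodimers with MAX at the same sites and repress them, the MXD proteins and MNT through the SIN3 corepressor and MGA as part of a variant Polycomb complex, PRC1.6. In liver, *Myc* is known as an early response gene after partial hepatectomy.

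RNA-Seq of whole liver was performed on 9 libraries from C57/BL6 mice (C57BL/6J in the methods of the study) aged 12 weeks, all WT and male, in 3 groups of 3 livers. Baseline samples were the lobes resected from vehicle-treated mice at 70% hepatectomy, and the other groups were liver remnants 40 h after surgery in mice given vehicle or NSC (NSC-87877, a small molecule inhibitor of the phosphatase SHP2 that also inhibits SHP1) at 7.5 mg/kg per dose, with treatment begun 12 h before surgery according to the labels. No NSC-treated baseline was analysed here, so both comparisons with baseline used the same 3 vehicle livers, and the sources used here do not say whether a resected lobe and a remnant came from the same animal. The study describes the replicates as biological, and the p-values measure the spread between these livers.

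Libraries held 23997363 to 42887589 gene counts, and 3 counts, taken as the detection limit, were worth 0.0751 to 0.117 CPM. CPM is a gene's count scaled to a common library size with TMM factors, and it is the unit used below for a gene across livers. Hepatocyte markers (*Alb*, *Ttr*, *Apoa1*, *Hnf4a*, *Cps1*) summed to between 87672 and 123154 CPM in every liver, most of it *Alb*. *Cps1*, the first enzyme of the urea cycle, was lower in the remnants, at 5301 to 5864 CPM at baseline, 3174 to 4917 CPM in vehicle and 1962 to 2862 CPM in NSC remnants, and was called in NSC remnants (−1.25 ± 0.22, edgeR adjusted p = 0.00144) and, by DESeq2 but not edgeR, between NSC and vehicle. NSC replicate 1 stood apart in proliferation: 8 proliferating cell markers summed to 157 CPM there and to 708 and 856 CPM in the other NSC livers, against 280 to 359 CPM in vehicle remnants and 4.55 to 5.95 CPM at baseline. The fold changes also moved with the GC content of the transcripts: over 14900 genes the Spearman correlation of log2 fold change with GC content was −0.13 for vehicle and −0.41 for NSC against baseline, and −0.56 for NSC against vehicle. Whole liver RNA was measured, so fewer cells of a type and less RNA per cell cannot be told apart.

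Promoter windows were available for 8 of the 9 members and not for *Myc*, whose promoter was therefore not searched. The 10 windows of 300 bases reached from 250 bases before to 50 bases after an annotated start (RefSeq, GRCm38.p6). They were searched on both strands for the E-box (CACGTG), for the core of an E2F site (TTCCCGC) and for the cell cycle homology region (TTTGAA), none of which overlaps another in these windows. An E-box was present in the windows of *Max*, *Mxd4* and *Mnt*, that is in 3 of 10 windows (30.0%), against 7.15% of all 32851 windows of this length and 13 of 60 windows (21.7%) of MYC-induced target genes. Other forms of the E2F site were not searched. TTCCCGC was present in the *Mxd3* window only (4.60% of all windows held it), and TTTGAA in the *Mycn* window only (17.9% of all windows). These 4 are shown because *Mxd3* was the member that moved most and because *Max*, *Mxd4* and *Mnt* carry the site that the network itself binds; each runs 5′ to 3′ on the gene's own strand over 250 bases before and 25 bases after the start, and capitals mark the motif.
*Mxd3* (chr13:55329707-55329981, minus strand, E2F core read on the opposite strand and beginning 136 bases before the start): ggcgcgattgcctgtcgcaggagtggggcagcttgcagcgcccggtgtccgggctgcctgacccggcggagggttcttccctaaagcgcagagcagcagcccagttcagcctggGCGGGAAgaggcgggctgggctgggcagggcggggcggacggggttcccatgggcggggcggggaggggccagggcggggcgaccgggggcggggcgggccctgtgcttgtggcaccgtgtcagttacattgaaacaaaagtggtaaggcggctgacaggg
*Max* (chr12:76962224-76962498, minus strand, E-box beginning 3 bases before the start): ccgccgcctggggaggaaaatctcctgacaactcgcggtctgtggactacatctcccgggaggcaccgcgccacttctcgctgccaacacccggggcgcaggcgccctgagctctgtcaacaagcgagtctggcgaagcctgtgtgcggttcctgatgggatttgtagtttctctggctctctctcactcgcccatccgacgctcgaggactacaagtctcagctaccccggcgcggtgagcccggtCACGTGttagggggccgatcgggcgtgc
*Mxd4* (chr5:34187686-34187960, minus strand, E-box beginning 219 bases before the start): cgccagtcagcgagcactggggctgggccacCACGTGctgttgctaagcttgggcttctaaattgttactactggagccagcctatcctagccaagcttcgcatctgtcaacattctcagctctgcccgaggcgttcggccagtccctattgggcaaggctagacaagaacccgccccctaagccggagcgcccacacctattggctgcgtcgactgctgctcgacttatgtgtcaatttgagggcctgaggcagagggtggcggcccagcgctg
*Mnt* (chr11:74830674-74830948, plus strand, E-box beginning 123 bases before the start): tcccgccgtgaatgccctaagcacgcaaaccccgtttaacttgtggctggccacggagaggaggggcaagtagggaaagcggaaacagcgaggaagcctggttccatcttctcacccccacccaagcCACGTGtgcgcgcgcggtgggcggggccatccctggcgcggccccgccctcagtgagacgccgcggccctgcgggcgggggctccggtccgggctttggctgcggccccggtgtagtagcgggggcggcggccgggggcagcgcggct
A match of this kind is a description of the letters and does not show that a factor was bound.

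The question put to the members was how their transcripts stood in the remnant 40 h after hepatectomy and whether NSC changed them. At 40 h *Myc* was lower than at baseline in both treatments, *Mxd3* was induced from near absence in both, *Mxi1* was lower in vehicle remnants and *Mxd4* and *Mnt* were lower in NSC remnants. In vehicle remnants 3 of 9 members were called (edgeR quasi-likelihood test, Benjamini-Hochberg adjusted p under 0.05), 1 higher and 2 lower, while 23.7% of all tested genes were called, 12.7% higher and 11.0% lower (3 members and 37.0% of genes had an unadjusted p under 0.05). In NSC remnants 4 of 9 members were called, 1 higher and 3 lower, while 34.7% of all tested genes were called, 18.2% higher and 16.5% lower (5 members and 45.2% of genes unadjusted). These counts are near the background, so the network as a whole did not stand out by number. NSC against vehicle at 40 h gave 0 of 9 members called by edgeR (2 at an unadjusted p under 0.05) and 0 by DESeq2 (3 unadjusted), where edgeR called 0.0399% of all tested genes (6 genes) and 19.5% had an unadjusted p under 0.05, and DESeq2 called 5.84% (733 of the 12561 genes it gave an adjusted p). That background depended on single libraries: edgeR called 994 genes (6.46%) without NSC replicate 1, with *Mxd4* as the 1 member called, and 111 without vehicle replicate 3.

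**Figure D1:**
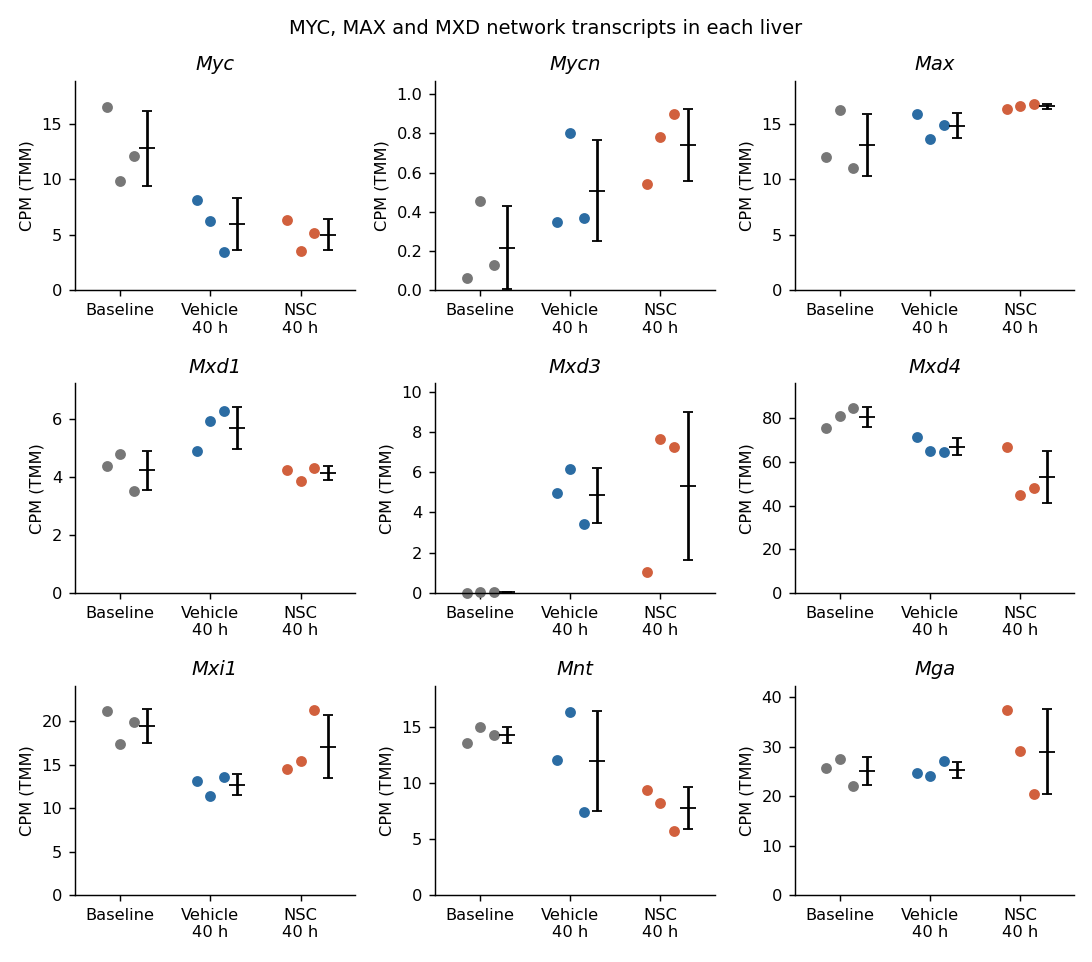
Level of each network member in each liver (CPM after TMM scaling, vertical axes start at 0) at baseline, in vehicle remnants and in NSC remnants at 40 h. Coloured points are single livers in replicate order, and black marks give the mean ± SD of 3 livers; *Myc* sits lower in all 6 remnants than in any baseline liver, and *Mxd3* sits near 0 at baseline.

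Among the activators, *Myc* (ENSMUSG00000022346, chromosome 15, 61985341 to 61990374 in the deposited table) held 16.5, 9.83 and 12.1 CPM in the 3 baseline livers. It held 8.18, 6.25 and 3.51 CPM in vehicle remnants and 6.30, 3.53 and 5.20 CPM in NSC remnants. Every remnant was below every baseline liver, and the 2 treatments overlapped. *Myc* was 2.13-fold lower in vehicle remnants (log2 fold change −1.09 ± 0.32 SE, edgeR adjusted p = 0.0269) and 2.55-fold lower in NSC remnants (−1.35 ± 0.32, edgeR adjusted p = 0.00726). NSC against vehicle gave −0.26 with a 95% confidence interval of −0.96 to 0.44 (edgeR adjusted p = 0.679), which leaves room for a moderate difference in either direction. The call in vehicle remnants was lost when baseline replicate 1 (adjusted p = 0.109), baseline replicate 3 (0.0621), vehicle replicate 2 (0.0677) or vehicle replicate 3 (0.0849) was left out of the edgeR fit, whereas the NSC call was kept under all 17 alternatives tried. Messenger RNA was measured at this single interval after surgery, and MYC protein was not.

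Lymphocyte markers were lower on average in the remnants, as *Myc* was. The B cell markers *Cd79a* and *Cd79b* averaged 1.25 ± 1.12 and 1.52 ± 0.93 CPM at baseline, 0.30 ± 0.28 and 0.46 ± 0.45 CPM in vehicle remnants, and 0.37 ± 0.11 and 0.80 ± 0.11 CPM in NSC remnants (SD, n = 3); their groups overlapped and neither was called in either comparison with baseline. The 5 T and NK cell markers summed to 1.19 to 2.75 CPM at baseline, 0.225 to 0.803 CPM in vehicle remnants and 1.02 to 1.53 CPM in NSC remnants. Of 3 tested markers, 1 (*Cd3g*) was called lower in vehicle remnants and 0 in NSC remnants, beside 11.0% and 16.5% of all tested genes. *Cd3e* was at 0 in 1 NSC library and *Trbc2* in 1 vehicle library. The 7 macrophage and Kupffer cell markers went the other way in NSC remnants, with sums of 108 to 162 CPM at baseline, 92.5 to 177 CPM in vehicle and 183 to 317 CPM in NSC remnants. Erythroid marker sums averaged 238 CPM at baseline, 113 CPM in vehicle and 136 CPM in NSC remnants. Neutrophil sums averaged 7.52, 14.7 and 17.8 CPM and cholangiocyte sums 38.8, 89.4 and 94.4 CPM in the same order. The part of these cells in the *Myc* values was not tested.

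*Mycn* (ENSMUSG00000037169, chromosome 12, 12936096 to 12941914) is a MYC paralogue better known from embryonic tissue and was scarce here. Its counts were 2, 15 and 4 at baseline, 14, 31 and 10 in vehicle remnants and 18, 23 and 23 in NSC remnants, or 0.0632 to 0.458, 0.35 to 0.803 and 0.54 to 0.90 CPM. The NSC livers were all above the baseline livers, while the vehicle livers overlapped both other groups. Neither comparison with baseline passed the threshold, with log2 fold changes of 1.21 ± 0.63 in vehicle (edgeR adjusted p = 0.189) and 1.73 ± 0.63 in NSC (edgeR adjusted p = 0.0502). The NSC value lay at the threshold: it was called under 7 of 16 alternatives, with adjusted p from 0.00944 to 0.159. At 2 to 31 counts a liver, counting error is a large part of these values.

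*Mycl*, the remaining MYC paralogue, is not a member but belongs to the list of activators, and it held 5.25 to 9.47 CPM at baseline, 4.46 to 6.35 CPM in vehicle and 5.20 to 6.96 CPM in NSC remnants, called in neither comparison.

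*Max* (ENSMUSG00000059436, chromosome 12, 76937269 to 76962248), which encodes the heterodimer partner shared by the other members, was the steadiest of the moderately expressed genes. It held 12.0, 16.2 and 11.0 CPM at baseline, 15.8, 13.6 and 14.9 CPM in vehicle remnants and 16.3, 16.5 and 16.8 CPM in NSC remnants. The NSC livers lay just above all others, and the vehicle livers overlapped baseline. None of its comparisons was called, with log2 fold changes of 0.17 ± 0.17 in vehicle and 0.34 ± 0.17 in NSC remnants (edgeR adjusted p = 0.482 and 0.135). The 95% confidence intervals were −0.19 to 0.53 and −0.02 to 0.70.

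*Mxd3* (ENSMUSG00000021485, chromosome 13, 55325168 to 55329758) encodes the MXD protein known for expression in S phase of cycling cells, unlike its relatives, which mark cells leaving the cycle. Its counts were 0, 2 and 1 in the baseline livers. Vehicle remnants held 198, 237 and 93 counts (4.96, 6.14 and 3.43 CPM), and NSC remnants held 35, 225 and 185 counts (1.05, 7.64 and 7.24 CPM). All remnants were far above baseline, and NSC replicate 1 was the lowest of the 6. Summed over the livers, the ratio to the baseline was 158 in vehicle (528 against 3 counts, 95% interval 53.7 to 768) and 159 in NSC (445 against 3 counts, 54.1 to 774), intervals that cover counting error only. The increase was called in both (edgeR adjusted p = 0.00139 and 0.000868) and under all 16 alternatives that tested the gene. *Mxd3* passed the expression filter only through the remnants, and a filter of at least 10 counts in every library left it out. These calls therefore add little to the separation of the counts given above. *Mxd3* was the 1 member whose log2 fold change also exceeded 1.5, a bar that 7.22% of all tested genes passed with the call in vehicle and 8.13% in NSC remnants; between NSC and vehicle 0.0200% passed it, and 0 members.

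The level of *Mxd3* followed the proliferation markers from liver to liver. NSC replicate 1, lowest for *Mxd3* among the remnants, was also lowest for the summed markers, and NSC replicates 2 and 3 were highest for both. All 8 proliferation markers (*Mki67*, *Top2a*, *Cdk1*, *Ccnb1*, *Birc5*, *Aurkb*, *Plk1*, *Bub1*) were called higher in both treatments, beside 12.7% and 18.2% of all tested genes. The baseline was near absence for *Ccnb1* (3, 7 and 5 counts), *Aurkb* (5, 3 and 3), *Plk1* (11, 3 and 9) and *Bub1* (4, 2 and 0). Between NSC and vehicle 0 of 8 were called, by edgeR or DESeq2, with 0 at an unadjusted p under 0.05 by either. *Mxd3* differed by 0.12 on the log2 scale between NSC and vehicle, with an interval of −1.21 to 1.46 (edgeR adjusted p = 0.929), and by 0.61 without NSC replicate 1. The genes whose log2 CPM over the 9 libraries was most like that of *Mxd3* were *Tubb6*, a β-tubulin (Pearson r = 0.999), and *Iqgap3*, a scaffold protein (r = 0.997); with 3 groups far apart such values mostly describe the group differences. Of the 3 motifs searched, the *Mxd3* window printed above held the E2F core TTCCCGC. Of the windows of the proliferation markers, 4 of 7 held TTTGAA and 0 of 7 held TTCCCGC.

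**Figure D2:**
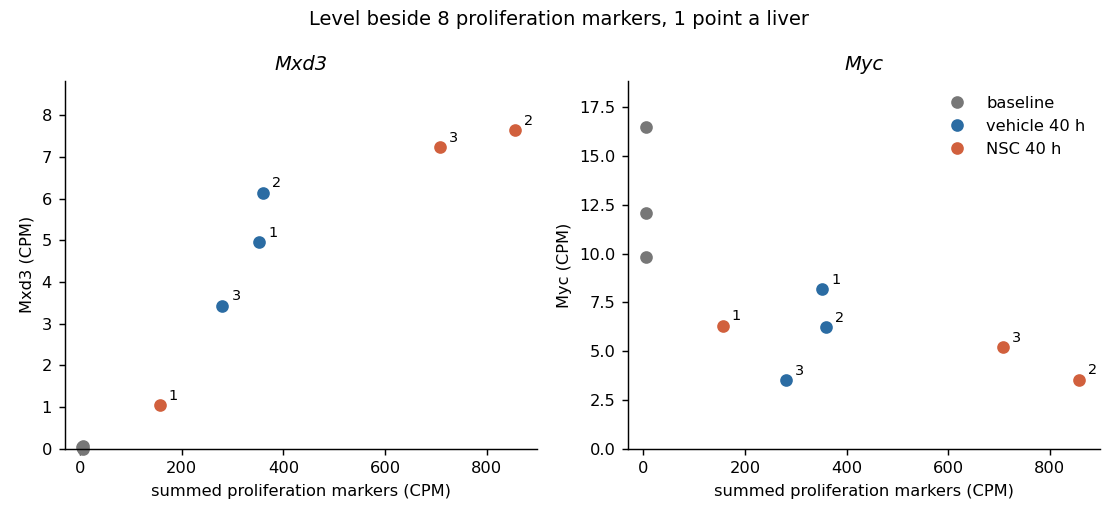
*Mxd3* (left) and *Myc* (right) in CPM against the summed CPM of 8 proliferation markers, 1 point a liver, with remnants numbered by replicate; both axes are linear. *Mxd3* rises with the marker sum, from 1.05 CPM at 157 CPM to 7.64 CPM at 856 CPM among the NSC livers, while all remnants lie below the baseline livers for *Myc*.

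*Mxd3* shares a stretch of the genome with *Prelid1* on the opposite strand, and the strand setting used in counting is not given in the sources used here. *Prelid1* held 99.0 to 107 CPM at baseline, where *Mxd3* held at most 2 counts, and was called in neither comparison (edgeR adjusted p = 0.268 in vehicle and 0.125 in NSC). *Mxd4*, *Mxi1*, *Max* and *Mxd1* overlap annotated genes that were not among the tested genes.

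*Mxd4* (ENSMUSG00000037235, chromosome 5, 34173887 to 34187720), the MXD gene with the highest level in this liver series, held 75.7, 81.1 and 84.8 CPM at baseline. It held 71.7, 65.0 and 64.6 CPM in vehicle remnants and 66.8, 44.9 and 48.1 CPM in NSC remnants. Every remnant lay below every baseline liver, and NSC replicate 1 lay within the vehicle range while replicates 2 and 3 lay below it. The fall was called in NSC (−0.60 ± 0.16, edgeR adjusted p = 0.0129) and missed the threshold in vehicle remnants (−0.26 ± 0.16, edgeR adjusted p = 0.254), and the difference between the treatments was −0.33 with an interval of −0.68 to 0.01 (edgeR adjusted p = 0.272). Without NSC replicate 1, the remnant with the lowest summed proliferation markers, the direct difference was −0.53 (edgeR adjusted p = 0.0407). The part of proliferation in it was not tested. The NSC call was lost without baseline replicate 3, without NSC replicate 2 and with scaling by library size alone (−0.45, edgeR adjusted p = 0.0759).

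*Mxi1* (ENSMUSG00000025025, chromosome 19, 53310506 to 53375810) encodes the antagonist also called MXD2. It held 21.1, 17.3 and 19.8 CPM at baseline, 13.1, 11.4 and 13.6 CPM in vehicle remnants and 14.5, 15.5 and 21.2 CPM in NSC remnants. The vehicle livers lay below all others, and NSC replicate 3 lay just above the highest baseline liver while the other NSC livers lay between the groups. The fall in vehicle was 1.53-fold (−0.61 ± 0.17, edgeR adjusted p = 0.0233), the NSC value was −0.19 ± 0.17 (edgeR adjusted p = 0.422), and NSC against vehicle gave 0.42 ± 0.17 (unadjusted p = 0.0306, edgeR adjusted p = 0.213). The differing calls therefore do not show a difference between treatments. The vehicle call was lost without baseline replicate 1 or 3 or vehicle replicate 1 or 2, with adjusted p up to 0.0871.

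*Mxd1* (ENSMUSG00000001156, chromosome 6, 86647044 to 86669159), which encodes an antagonist that accompanies terminal differentiation, held 4.36, 4.79 and 3.50 CPM at baseline. It held 4.88, 5.91 and 6.27 CPM in vehicle remnants and 4.23, 3.87 and 4.30 CPM in NSC remnants. The vehicle livers were the highest and overlapped neither group. No comparison was called: the log2 fold change was 0.43 ± 0.21 in vehicle (edgeR adjusted p = 0.161), −0.03 ± 0.21 in NSC (0.93) and −0.46 ± 0.21 for NSC against vehicle (0.258).

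*Mnt* (ENSMUSG00000000282, chromosome 11, 74830920 to 74845725), a broadly expressed antagonist that represses the same sites in resting and cycling cells, held 13.6, 15.1 and 14.4 CPM at baseline. It held 12.1, 16.4 and 7.46 CPM in vehicle remnants and 9.42, 8.29 and 5.75 CPM in NSC remnants. The NSC livers lay below every baseline liver, and the vehicle livers spread over both ranges. *Mnt* was 1.83-fold lower in NSC remnants (−0.87 ± 0.26, edgeR adjusted p = 0.0235), −0.25 ± 0.26 in vehicle (edgeR adjusted p = 0.513), and −0.62 ± 0.26 for NSC against vehicle (unadjusted p = 0.037, edgeR adjusted p = 0.227). *Mnt* has the highest transcript GC content of the network at 59.5%, and with a correction for GC content the NSC value was −0.41 and no longer called (edgeR adjusted p = 0.227). The call was also lost without baseline replicate 2 or 3 or NSC replicate 2 or 3.

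*Mga* (ENSMUSG00000033943, chromosome 2, 119897228 to 119969581) encodes the largest member, which carries a T-box as well as the helix-loop-helix domain. It held 25.7, 27.6 and 22.1 CPM at baseline, 24.7, 24.1 and 27.2 CPM in vehicle remnants and 37.5, 29.1 and 20.4 CPM in NSC remnants. The groups overlapped, and the NSC livers spread the most, with replicate 1 highest. The log2 fold changes were 0.01 in vehicle and 0.21 in NSC remnants (edgeR adjusted p = 0.972 and 0.435). *Mga* has the lowest GC content of the network at 42.2%, and with the GC correction both values were negative (−0.20 and −0.28), so no direction is given for it.

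Counted by separation of the livers, the groups did not overlap for 5 of 9 members in vehicle remnants against baseline (46.3% of all tested genes), 6 of 9 in NSC remnants (47.1%) and 3 of 9 between the treatments (22.5%). Of the 3 members that separated the treatments, *Max* and *Mxi1* were higher and *Mxd1* was lower with NSC, and none was called.

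**Figure D3:**
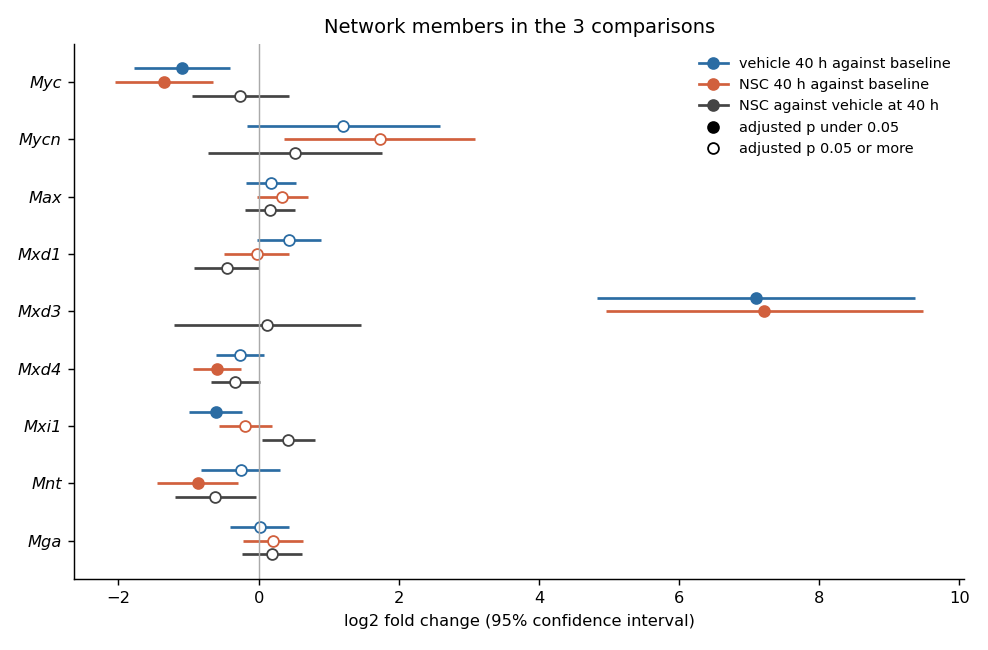
Log2 fold change (horizontal axis) with 95% confidence interval for each member in the 3 comparisons; filled circles have an edgeR adjusted p under 0.05. *Mxd3* alone lies beyond 1.5 with a call, near 7 in both comparisons with baseline, and no NSC against vehicle value is filled.

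Levels were compared between genes per length, as FPKM deposited by the authors. *Mxd4* ranked first and *Max* the second in all 3 groups, at 20.0 ± 1.26 and 6.30 ± 1.32 FPKM (SD, n = 3) at baseline. *Myc* followed at 4.47 ± 1.16 FPKM at baseline, where its range overlapped those of *Max* and *Mxi1* (3.34 ± 0.324 FPKM). At 40 h *Myc* held 2.13 ± 0.949 FPKM in vehicle and 1.94 ± 0.606 FPKM in NSC remnants, in an overlapping run with *Mnt*, *Mxd3*, *Mxi1* and *Mga*, whose order among themselves is not resolved. *Mxd3* went from the lowest member at baseline (0.0146 ± 0.0142 FPKM) to 2.25 ± 0.573 FPKM in vehicle and 2.67 ± 1.83 FPKM in NSC remnants. *Mxd1* (0.873, 1.18 and 0.945 FPKM at baseline, in vehicle and in NSC) and *Mycn* (0.0639, 0.147 and 0.238 FPKM) were the 2 lowest members at 40 h.

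Summed per length, the 6 antagonists (*Mxd1*, *Mxd3*, *Mxd4*, *Mxi1*, *Mnt*, *Mga*) exceeded the activators *Myc* and *Mycn* in every liver. The ratio of antagonist to activator FPKM was 4.82, 8.15 and 6.95 at baseline, 9.29, 11.2 and 18.4 in vehicle remnants and 10.5, 14.9 and 10.7 in NSC remnants. All remnants lay above all baseline livers, and the treatments overlapped. The sum of the antagonists itself was 27.6 to 29.8 FPKM at baseline, 24.7 to 30.0 in vehicle and 23.0 to 28.3 in NSC remnants, while the sum of the activators was 3.56 to 5.74, 1.34 to 3.23 and 1.55 to 2.69 FPKM. Within that sum the *Mxd3* share went from at most 0.0975% at baseline to 6.48% to 10.5% in vehicle and 1.96% to 16.3% in NSC remnants, and the *Mxd4* share from 67.7% to 71.2% down to 59.6% to 65.4% and 51.4% to 67.0%. *Mycl*, which is not a member, was left out of the activators. It held 1.26 to 2.26 FPKM at baseline, 0.993 to 1.52 in vehicle and 1.37 to 1.90 in NSC remnants, and the ratios of antagonist to activator would be lower with it. These ratios describe transcripts and are given with no test, since the members were chosen with results known.

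**Figure D4:**
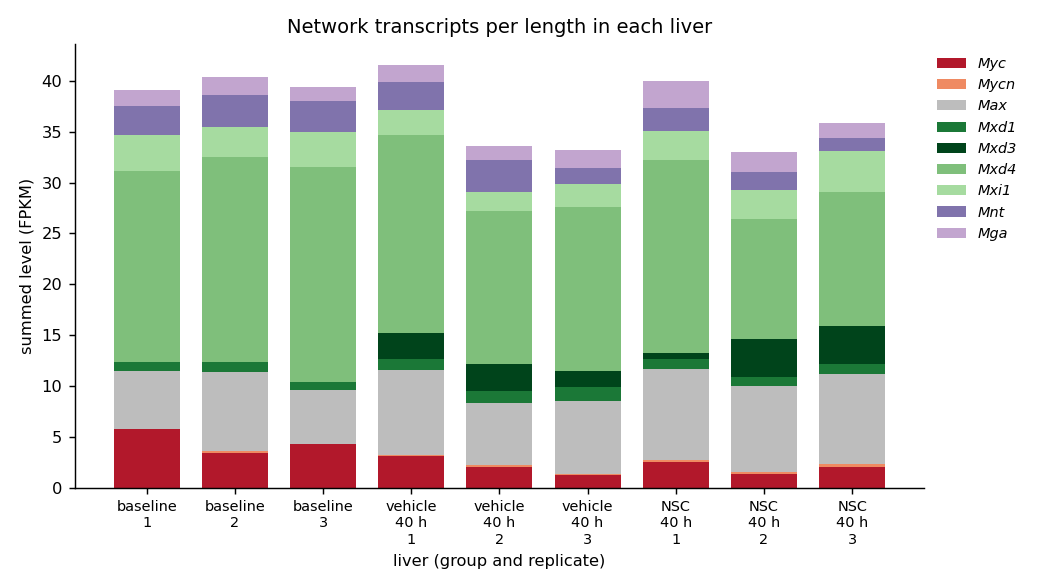
Level of the 9 members per length (FPKM, stacked, axis from 0) in each of the 9 livers, labelled by group and replicate. The *Myc* block at the base is tallest at baseline, and the dark *Mxd3* block appears in the remnants and is thinnest in NSC replicate 1.

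The next genes encode proteins that work with the network, and their counts stand beside the 23.7% of all tested genes called in vehicle and the 34.7% in NSC remnants. Of 12 MYC coactivators, 1 was called higher in vehicle remnants, *Ccnt1*, the cyclin of the elongation kinase P-TEFb (0.54 ± 0.16, edgeR adjusted p = 0.0303, and 0.62 in NSC remnants). In NSC remnants 3 were called, the others being *Actl6a* (0.47), a chromatin remodelling subunit, and *Trrap* (−0.87), the large scaffold of histone acetyltransferase complexes, both named after their values were seen. Of 9 genes that set the stability of MYC protein, 5 were called in vehicle (3 higher, 2 lower) and 4 in NSC remnants (3 higher, 1 lower). *Skp2*, an F-box protein of the cell cycle, rose by 1.85 and 2.42 on the log2 scale in vehicle and NSC remnants, and *Cip2a*, an inhibitor of the phosphatase PP2A, by 4.55 and 5.91. *Ppp2r5a*, a PP2A subunit that directs the phosphatase to MYC, fell by 1.01 and 0.66, and *Usp28*, a deubiquitinase, changed by −0.63 and −0.47, the latter not called. *Aurka*, the third gene that rose (5.25 and 6.13), is a mitotic kinase, and it, *Skp2* and *Cip2a* are themselves cell cycle genes.

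Against the same shares of all genes (23.7% and 34.7%), of 12 genes of the SIN3 corepressor, through which MXD proteins and MNT repress, 1 was called in vehicle, *Sap30* (1.30 ± 0.29, edgeR adjusted p = 0.00777), and 5 in NSC remnants. The 5 were *Sap30* (2.04), the deacetylases *Hdac1* (0.50) and *Hdac2* (0.78), the histone chaperone *Rbbp7* (0.74) and the scaffold *Sin3b* (−0.60), the last 4 named after their values were seen. Of 11 partners of MGA in PRC1.6, 4 were called in vehicle (3 higher) and 7 in NSC remnants (6 higher), with list medians of 0.37 and 0.69 beside 0.01 for all tested genes in both. *Tfdp1*, the dimer partner of E2F factors, rose by 0.87 and 1.03, and *Rybp*, a Polycomb subunit, by 0.85 and 1.07, while *Ring1*, a catalytic Polycomb subunit, changed by −0.68 and −0.87. None of the coactivator, stability, SIN3 or PRC1.6 genes was called between NSC and vehicle by edgeR. By that test 1, 1, 3 and 4 of them had an unadjusted p under 0.05, beside 19.5% of all tested genes. DESeq2 called 1 of the stability genes, *Cip2a*, and 3 of the PRC1.6 partners, *Cbx1*, *Cbx3* and *Rnf2*, and none of the other 2 lists; these 4 were named after their values were seen, and 5.84% of all genes were called by DESeq2. Of 10 germline genes listed as silenced by PRC1.6, 9 were below the expression filter, *Mael*, *Stk31* and *Taf7l* at 0 in all 9 libraries. *Tdrkh* was not silent here, at 3.08 to 4.74 CPM over the 9 libraries. It was tested and called in no comparison.

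The MLX arm is a parallel set of helix-loop-helix factors, some of which respond to glucose. The list holds the factors *Mlx*, *Mlxip* and *Mlxipl* and the target genes *Txnip*, *Arrdc4* and *Pklr*. Of these 6 factors and targets, 3 were called lower in vehicle and 3 in NSC remnants and none higher. Of all tested genes 11.0% and 16.5% were called lower, and the list medians were −0.76 and −1.10. *Mlxipl*, which encodes the glucose sensor ChREBP, changed by −0.99 ± 0.24 in vehicle and −1.64 ± 0.24 in NSC remnants (edgeR adjusted p = 0.0112 and 0.000518), and its target *Pklr*, liver pyruvate kinase, by −2.73 and −2.78. *Pklr* held 175, 656 and 170 CPM at baseline and 39.8 to 62.1 CPM in the remnants, and without baseline replicate 2, the high liver, its values were −1.78 and −1.83, both still called. *Txnip* was called in vehicle (−1.98) and *Mlxip* in NSC remnants (−0.85), both named after their values were seen. Between NSC and vehicle 0 of 6 were called by edgeR or DESeq2, with 1 at an unadjusted p under 0.05 by each, beside 19.5% of all tested genes by edgeR.

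Among genes that MYC is known to induce, more were called higher than lower at 40 h, where *Myc* mRNA was lower. Of 54 such genes in 3 lists, 24 were called in vehicle remnants (21 higher, 3 lower), and 23 in NSC remnants (16 higher, 7 lower), beside the 23.7% and 34.7% of all tested genes given above. The list medians were 0.29 and 0.28 on the log2 scale, against 0.01 for all tested genes in both comparisons, and with the GC correction they were 0.25 and 0.15 against −0.09 and −0.07. Without baseline replicate 3 the counts were 13 and 14, beside 2285 and 3604 of 15398 tested genes. Without baseline replicate 1 the vehicle count was 14, beside 2329 of 15281 tested genes. In the main fit 3564 and 5207 of 15024 genes were called. More targets were called higher than lower each time. The 2 comparisons called 14 genes in common, 58.3% of the vehicle calls and 60.9% of the NSC calls, all in the same direction; they share their baseline livers, so this is not independent evidence.

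Among 20 genes of the nucleolus and ribosome production, 7 were called higher and 0 lower in vehicle remnants, and 5 higher and 1 lower in NSC remnants. That is 35% and 30% of this list, beside 23.7% and 34.7% of all tested genes. For this list and the next, the shares of all tested genes were 12.7% higher and 11.0% lower in vehicle, and 18.2% and 16.5% in NSC remnants. *Nop56* and *Nop58*, core proteins of box C/D small nucleolar ribonucleoproteins, rose by 0.77 ± 0.13 and 1.15 ± 0.19 in vehicle (edgeR adjusted p = 0.00149 and 0.00155) and by 1.02 and 1.70 in NSC remnants. Among 21 genes of metabolism and transport, 9 were higher and 2 lower in vehicle, and 6 higher and 3 lower in NSC remnants. *Mthfd2*, a mitochondrial folate enzyme of growing cells, rose by 3.25 ± 0.34 in vehicle and 2.97 ± 0.34 in NSC remnants (edgeR adjusted p = 0.00011 and 0.000124). *Pkm*, the pyruvate kinase gene of proliferating tissue, rose by 1.48 in vehicle and had 0.62 in NSC remnants (edgeR adjusted p = 0.0528). The enolase *Eno1* (−0.56 and −1.01) and the cytosolic serine hydroxymethyltransferase *Shmt1* (−0.86 and −0.95) were called lower in both.

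Among 13 genes of translation, chaperones and the cell cycle, 5 were higher and 1 lower in vehicle, and 5 higher and 3 lower in NSC remnants. Of all tested genes, 12.7% were called higher and 11.0% lower in vehicle, and 18.2% and 16.5% in NSC remnants. *Cdc25a*, the phosphatase that activates cyclin-dependent kinases, rose by 1.63 ± 0.20 in both, and *Eif4e*, the cap-binding factor, by 0.64 and 1.14, while *Phb2*, a mitochondrial prohibitin, changed by −0.62 and −0.73. Of 5 tested genes that MYC represses, *Cdkn1a*, the cell cycle inhibitor p21, rose in vehicle (2.00 ± 0.53, edgeR adjusted p = 0.0295) and had 1.53 in NSC remnants (0.054). *Ndrg2* fell in both (−0.91 and −1.08), and *Cdkn1b*, named after its value was seen, rose in NSC remnants (1.02). Between the treatments 0 of 5 were called by edgeR or DESeq2, with 3 at an unadjusted p under 0.05 by each, beside 19.5% of all tested genes by edgeR. A list of textbook targets is induced by other growth signals as well, and binding of MYC was not measured.

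Over all the lists of genes around the network, 21 of 40 calls in vehicle and 32 of 47 in NSC remnants were kept with each library left out in turn. Of the genes named above, the calls of *Ccnt1*, *Usp28*, *Rybp*, *Mlxipl*, *Txnip*, *Eno1*, *Eif4e* and *Cdkn1a* in vehicle and of *Actl6a*, *Ccnt1*, *Ppp2r5a* and *Hdac1* in NSC remnants were lost without at least 1 library, among them baseline replicate 3 for all but *Mlxipl* (vehicle replicate 1 or 3) and *Txnip* (baseline replicate 1 or 2 or any vehicle replicate). Apart from *Pklr*, the 1 called value that moved by over 1.5-fold was *Cdkn1a* in vehicle remnants, at 2.63 without baseline replicate 1.

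**Figure D5:**
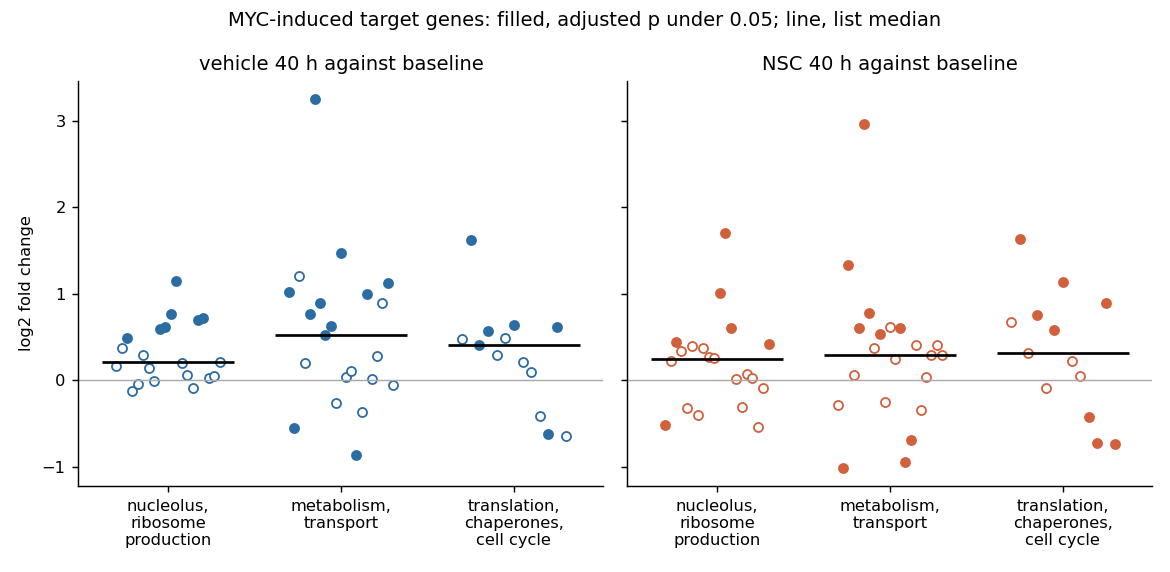
Log2 fold change (vertical axis) of 54 MYC-induced target genes in 3 lists, in vehicle (left) and NSC remnants (right) against baseline; filled points are called by edgeR and black lines are list medians. More filled points lie above 0 than below in each treatment, 21 against 3 and 16 against 7.

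Between NSC and vehicle, 1 of 54 induced targets was called by edgeR and 6 by DESeq2 (*Bop1*, *Cad*, *Mybbp1a*, *Pkm*, *Ppan* and *Srm*), all lower with NSC, beside 0.0399% and 5.84% of all genes. Without NSC replicate 1 edgeR called 4, 2 of them higher (*Eif4e* and *Prps2*) and 2 lower (*Cad* and *Pkm*), named after their values were seen. *Cad*, the enzyme of the first steps of pyrimidine synthesis, held 11.6, 13.0 and 18.4 CPM at baseline, 34.1, 28.6 and 24.7 CPM in vehicle remnants and 11.8, 12.7 and 10.8 CPM in NSC remnants. The vehicle livers were above all others, and the NSC livers lay in the lower part of the baseline range or below it. *Cad* rose by 1.02 ± 0.19 in vehicle (edgeR adjusted p = 0.00296), had −0.29 ± 0.19 in NSC remnants (edgeR adjusted p = 0.267) and differed by −1.31 ± 0.19 in NSC against vehicle (edgeR adjusted p = 0.047). That call was kept under 7 of 17 alternatives, and with the GC correction the value was −0.97 (edgeR adjusted p = 0.308). Another 17 targets had an unadjusted p under 0.05 without a call. With *Cad* that is 18 of 54, where 19.5% of all tested genes had an unadjusted p under 0.05 by edgeR. Together with *Cad*, the 12 that were lower had transcripts of 51.6% to 59.9% GC and the 6 that were higher had 40.5% to 43.6% GC, against a median of 49.7% over tested genes, and with the GC correction 5 of 54 had an unadjusted p under 0.05. The share of all genes at that threshold under the correction is not given here. Fold change moved with GC content over all genes as well (Spearman −0.56), so the split by GC is not particular to the targets. The part of GC content in these differences beyond that correction was not tested.

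By likeness of log2 CPM over the 9 libraries, the 5 genes closest to *Myc* were *Gm12966* (Pearson r = 0.986), *Plk5* (0.978), *Zbtb24* (0.974), *Rgs1* (0.969) and *Dpys* (0.963). *Gm12966* is a processed pseudogene, whose reads may be split with its parent gene. For *Mxd4* the closest were *Tspan17* (0.979) and the small nucleolar RNA *Snord37* (0.978), for *Mxi1* *Ugdh* (0.982) and *Iyd* (0.981), and for *Mnt* *Srcap* (0.983) and *Eepd1* (0.975). *Mycn* was closest to *Phf23* (0.969) and *Foxq1* (0.957), and *Mga* to *Phc3* (0.978) and *Wasl* (0.959). *Max* (*Slc30a9*, 0.944, and *Nme4*, 0.943) and *Mxd1* (*Mamstr*, 0.927, and *Irf1*, 0.914) had weaker neighbours. With 9 libraries in 3 groups and 15024 genes to choose from, high values are found for any gene, and nothing is read from them.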

How the data were processed

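The authors prepared stranded mRNA libraries from whole liver RNA, aligned paired-end reads with STAR 2.6.1 within the MAP-RSeq pipeline and assigned reads to genes with Subread 1.5.1 (featureCounts). The authors deposited raw counts per gene and FPKM values, and recomputing FPKM from the counts, gene length and library total gave a largest relative difference of 4.96e-10. The sources name a human genome build, but identifiers and coordinates are mouse ones; coordinates of genes are as deposited, and the mouse build behind them is not given in the sources used here.

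Tests on counts used edgeR 4.0.16 under R 4.3.3 (TMM factors, filterByExpr by group, robust quasi-likelihood fit of all 9 libraries, no further term), and p-values were adjusted over 15024 genes by the Benjamini-Hochberg method; a gene was called at an adjusted p under 0.05. Libraries of 23997363 to 42887589 counts differed from one another by far more than sampling noise (chi-square per gene 22.9 to 140). DESeq2 1.42.0, other scalings and filters, a threshold on fold change, a fit of the compared groups only, a replicate block, a GC correction (loess on log counts per library) and leaving out each library were tried as alternatives. The procedure was tested on simulated data. Figures were drawn with matplotlib 3.10.9 in Python 3.11.15.

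The members and the gene lists were chosen with earlier results of these data known. The text names all members and, from each list, up to 2 called genes that rose and 2 that fell with the smallest p in vehicle against baseline and in NSC against vehicle. All 189 list entries were found in the deposited table, 187 by name and 2 by identifier. For likeness, the 5 genes closest to *Myc* and the 2 closest to each other member were taken by Pearson correlation of log2 CPM with a prior count of 2. FPKM was used only to compare levels between genes. The result of 1 marker gene is not reported here.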

Additional observations from a re-analysis of the deposited data

Results flagged for a closer look

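*Cad* differed between NSC and vehicle remnants at 40 h, with a log2 difference of −1.31 ± 0.19 (edgeR adjusted p = 0.047): 3 of 3 vehicle remnants lay above every baseline liver and 0 of 3 NSC remnants did. No NSC-treated baseline was analysed here, so a difference already present before surgery cannot be told apart. Over the alternatives tried the adjusted p ran from 7.74e-06 (DESeq2) to 0.308 (GC correction), and the call was kept in 7 of 17. Values that moved with this difference are given beside it above, and their part in it was not tested.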

How the results depend on the processing

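Over the member and *Cad* values, 451 of 504 alternative values kept their direction and side of the threshold, 26 lost and 10 gained a call, and 17 changed sign, none of them a call. With a log2 fold change over 1.5 also required, 1 member was called in each comparison with baseline, and 2 (vehicle), 3 (NSC) and 0 (NSC against vehicle) targets. For NSC against vehicle, 1 target was called in the main analysis, 6 by DESeq2, 2 with every gene of at least 1 count, and 0 with RLE factors, library size only, the replicate block or the GC correction; over all genes 6 were called by edgeR and 733 by DESeq2. Leaving out each library in turn gave 1 to 4 (vehicle), 2 to 5 (NSC) and 0 to 1 (NSC against vehicle) members called, and 13 to 29, 14 to 24 and 0 to 4 targets; the 1 member was *Mxd4*, without NSC replicate 1. The lowest member counts came without baseline replicate 1 or 3 or vehicle replicate 2 (vehicle, *Mxd3* alone) and without baseline replicate 3 or NSC replicate 2 (NSC, *Mxd3* and *Myc*). The lowest target counts came without baseline replicate 3, where 2285 (vehicle) and 3604 (NSC) of all 15398 tested genes were called. In the main fit 3564 and 5207 of 15024 were called.

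Signs changed for *Mxd1* in NSC against baseline with library size only (0.11), *Mxd3* in NSC against vehicle with the replicate block (−0.19), and *Cad* in NSC against baseline with the GC correction (0.069). *Mga* changed sign against baseline in vehicle with RLE factors (−0.0024) and the GC correction (−0.20), and with the GC correction in NSC (−0.28) and in NSC against vehicle (−0.078). Without single libraries, ranges that crossed 0 were −0.53 to 0.030 for *Myc* and −0.24 to 0.61 for *Mxd3* in NSC against vehicle, −0.14 to 0.073 for *Mxd1* in NSC against baseline, and −0.065 to 0.086, −0.019 to 0.41 and −0.036 to 0.39 for *Mga* in vehicle, NSC and their difference. The cause was not tested. Scaling by library size only shifted the median of all genes by 0.15 in NSC against baseline and 0.14 in NSC against vehicle.

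Whether the replicate numbers shared by the groups pair the samples is not settled by the sources or by these values. Over 9 same-numbered pairs deviations correlated weakly, by −0.048 to 0.134, with 1 above 0.1. Even so, 7 of the 9 correlated best with their own number. With the number as a replicate block, 3, 5 and 0 members were called, *Mycn* being added in NSC remnants, and 23, 23 and 0 targets. At baseline, 0 to 2 counts of *Mxd3* and 2 to 15 of *Mycn* limit their fold changes.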
